A study of Mus musculus with 50 samples.

Results

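The 10 genes described here encode enzymes of glycolysis and its lactate branch: Hk1, Hk2, Gpi1, Pfkl, Pfkm, Pfkp, Aldoa, Gapdh, Pgk1 and Ldha. They were taken by symbol from a table of 16614 genes, and all 10 were found in it. Each library was made from 1 mouse oocyte at the germinal vesicle stage, the arrested stage before meiosis resumes. The 26 floxed oocytes came from 4 mice (5, 7, 7 and 7 oocytes in mice 1 to 4) that carry the Zfp36l2 allele flanked by recombination sites. The 24 knockout oocytes came from 4 mice (1, 7, 8 and 8 oocytes) with conditional deletion of Zfp36l2. The Cre line behind the deletion was not given in the sources used here. All females were 5 weeks old and received 10 IU of pregnant mare serum gonadotropin. Oocytes of both genotypes were isolated 46 h later within their cumulus cells, held with 5 µM milrinone and freed of cumulus cells and zona pellucida before lysis. Counts were added up over the oocytes of each mouse, and the mouse was the replicate.

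Glycolysis converts glucose to pyruvate in the cytosol. Hexokinases trap glucose as glucose 6-phosphate, phosphofructokinase commits it to breakdown, and the later enzymes recover ATP and NADH. Lactate dehydrogenase interconverts pyruvate and lactate. Mouse oocytes are known to use glucose poorly and to rely on pyruvate, much of which the surrounding cumulus cells supply.

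ZFP36L2 recognizes AU-rich stretches of 3′ untranslated regions and speeds the decay of the mRNA it binds. Its core motif, TATTTAT in DNA letters, was searched on the transcript strand of 1 annotated 3′ untranslated region per gene, counting overlapping matches. It was present in 27.7% of the 13803 tested genes with such a region and in 4 of the 10 glycolytic genes. The untranslated regions had a median length of 813 bases for the 10 genes and 1003 bases for all. The matches in the members are shown because this is the motif of the deleted protein. Each line gives 25 bases of transcript, 5′ to 3′, with the motif in capitals, from GENCODE annotation of mm10.
Hk2, chr6:82726565-82726589, minus strand: taagtaatgTATTTATatgttcctt
Hk2, chr6:82725903-82725927, minus strand: tatacgagtTATTTATtccagactg
Pfkm, chr15:98132341-98132365, plus strand: aataagcttTATTTATttctttgtg
Pfkp, chr13:6581373-6581397, minus strand: taacatagtTATTTATcagcacttt
Pfkp, chr13:6580372-6580396, minus strand: cactccttgTATTTATtctaaacga
Pgk1, chrX:106203504-106203528, plus strand: gagggcgtcTATTTATattctgcct
The regions of Hk1, Gpi1, Pfkl, Aldoa, Gapdh and Ldha held no match within their 1054, 1084, 1263, 185, 179 and 572 bases. A match is a string of letters in an annotation, and binding was not measured.

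Total counts were 1746007 to 6233840 per oocyte (median 4761241 in floxed and 5211210 in knockout oocytes) and 4332108 to 44498770 per mouse. Knockout mouse 1, with its single oocyte, had the lowest sum. The targeted gene Zfp36l2 was at 3.51, 1.96, 4.17 and 3.44 CPM, the count as a share of a mouse's total on the usual scale, in floxed mice 1 to 4 and at 2.77, 1.61, 2.56 and 1.06 CPM in knockout mice 1 to 4 (edgeR adjusted p = 0.208). These counts do not separate the deleted exons from the others and so do not check the genotype labels. Transcripts that mark oocytes (Zp3, Gdf9, Bmp15 and 12 others, all 15 present) summed to 5971 to 7538 CPM in floxed mice and 6169 to 6921 CPM in knockout mice. Of 22 listed cumulus and granulosa markers, 20 were present and 18 were tested; 0 were higher and 1 (Cyp11a1) was lower in knockout mice. Their sum was 485.7 to 536.0 CPM in floxed and 434.7 to 546.4 CPM in knockout mice. The highest was Serpine2, at 207.1 to 324.4 CPM in floxed and 159.0 to 275.4 CPM in knockout mice. Cyp19a1 followed at 60.5 to 101.2 and 61.9 to 87.7 CPM, while the granulosa factor Foxl2 was at or below 1.00 CPM in all 8. The fitted change was toward higher in knockout mice for 13 of the 18 tested markers and toward lower for 5. Inha was at 13.9 to 26.9 CPM in floxed and 23.1 to 58.6 CPM in knockout mice, without passing the test (edgeR adjusted p = 0.067). Of 12 listed blood and vessel markers 4 were present, summing to 97.8 to 191.5 CPM in floxed and 22.3 to 41.8 CPM in knockout mice, mostly Pecam1. The part of these markers in the results below was not tested.

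Of the 10 glycolytic transcripts 1, Gapdh, was called higher in knockout oocytes, by 1.55-fold, and none was called lower. The other 9 did not pass the test (quasi-likelihood test of edgeR, with a Benjamini-Hochberg adjusted p under 0.05 over 15029 genes). Among all genes tested 27.6% were called, 14.4% higher and 13.2% lower, so 1 call among 10 genes is not more than the background. The log2 fold change (knockout minus floxed, here and throughout) was above 0 for 5 members and below 0 for 5. Fold changes are those fitted by edgeR unless said otherwise, and they can differ from the ratio of the mean CPM printed beside them. Its median was 0.05 over the 10 members and −0.006 over all genes tested. Together the 10 transcripts made up 504.0 ± 27.3 CPM in floxed mice and 546.8 ± 68.6 CPM in knockout mice (means ± SD over 4 mice), and the ranges of 477.7 to 534.8 and 465.7 to 619.4 CPM overlapped. CPM values are shares of the total, so a change in the mRNA content of the whole oocyte would not be seen.

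The members differed far more from each other than between genotypes. Compared per kilobase of mean transcript length, floxed oocytes held 119.4 ± 9.33 CPM per kilobase of Aldoa and 0.249 ± 0.164 of Hk1. Gpi1 (42.6 ± 3.14) and Pgk1 (29.9 ± 4.08) followed Aldoa. Then came Ldha (15.4 ± 6.84), Gapdh (13.3 ± 2.68), Pfkp (11.6 ± 1.93), Pfkm (11.3 ± 3.09), Pfkl (6.94 ± 0.663) and Hk2 (1.08 ± 0.523 CPM per kilobase; n = 4 floxed mice for each). Aldoa, Gpi1 and Pgk1 kept these places in 4 of 4 floxed mice and in 4 of 4 knockout mice. Neighbours in the middle did not differ beyond their spread: Ldha exceeded Gapdh in 2 of 4 floxed mice and Pfkp exceeded Pfkm in 2 of 4. In knockout oocytes Gapdh stood above Ldha in 3 of 4 mice and Pfkl above Pfkm in 2 of 4. Shared sequence also limits this order. Of the 50-base stretches of the annotated transcript, 82.5% for Gapdh and 68.0% for Pgk1 also occur in other annotated genes. The shared part was 13.5% for Aldoa and 0.0% for Hk2. The places of Gapdh and Pgk1 are therefore uncertain. The entry step of the pathway was thus the least represented and the aldolase step the most represented among the members in both genotypes.

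**Figure D1:**
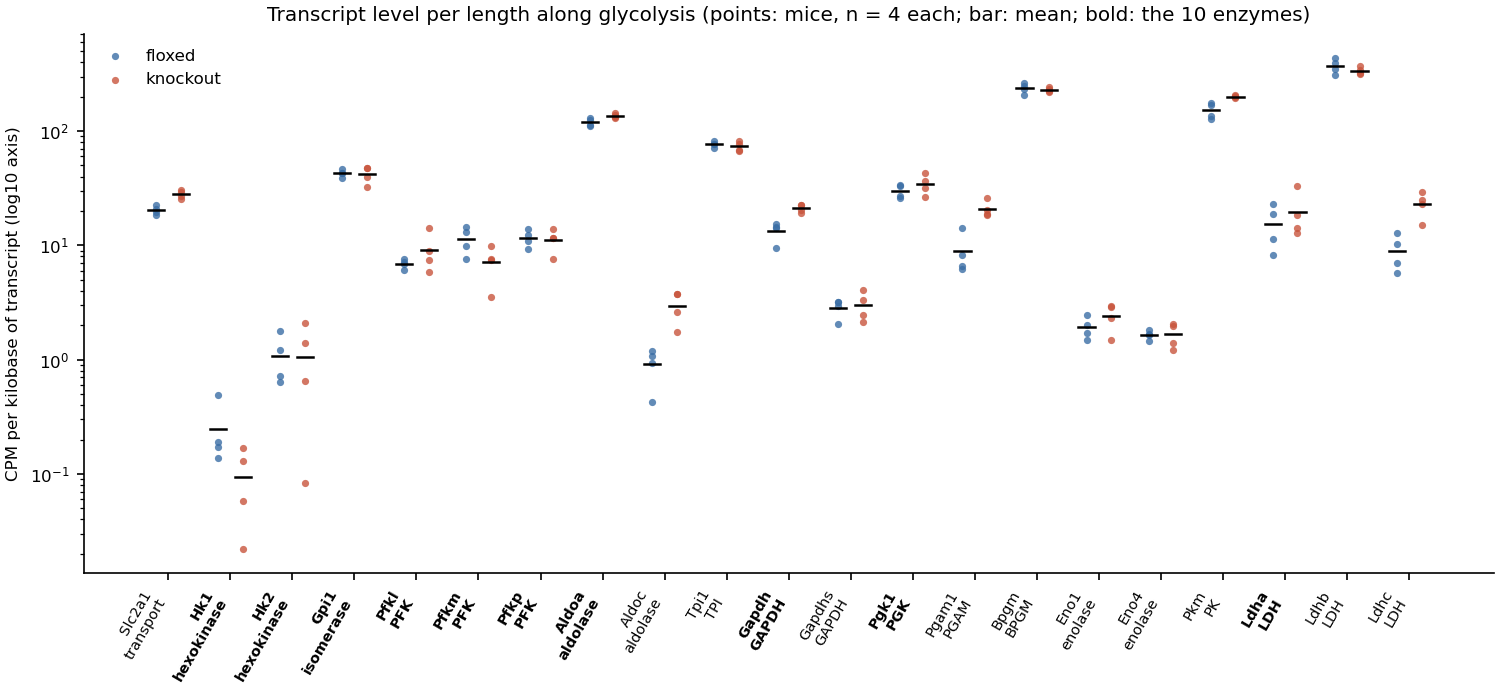
Transcript level per mouse (points, n = 4 per genotype; bars are means) in CPM per kilobase of transcript on a log10 axis, in pathway order from the glucose transporter Slc2a1 to the lactate dehydrogenases, with the 10 members in bold. Aldoa is the highest of the members in all 8 mice and Hk1 and Hk2 are the lowest. The non-members Ldhb, Bpgm and Pkm have higher means than Aldoa. Levels of Gapdh, Pgk1 and Eno1 are uncertain, as 82.5, 68.0 and 72.2% of their 50-base stretches occur in other annotated genes.

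Hk1, the hexokinase found in most tissues (chr10:62268855-62379908, minus strand), was close to the detection limit. It was at 2.00, 0.776, 0.704 and 0.558 CPM in floxed mice 1 to 4 and at 0.693, 0.526, 0.0899 and 0.235 CPM in knockout mice 1 to 4. Floxed mouse 1 stood above the rest, and knockout mouse 1 lay within the range of the floxed mice. The fitted difference, 2.99-fold lower in knockout mice, did not pass the test (log2 fold change −1.58, SE 0.77, 95% interval −3.31 to 0.16, edgeR adjusted p = 0.159), with 104 counts in all floxed and 35 in all knockout oocytes. Hk2, the insulin-responsive isozyme (chr6:82725025-82774454, minus strand), was at 3.96, 3.51, 9.76 and 6.66 CPM in floxed mice and 0.462, 3.57, 11.5 and 7.69 CPM in knockout mice 1 to 4. The groups overlapped throughout, mouse 3 was highest in each, and the single oocyte of knockout mouse 1 was lowest with 2 counts. Its log2 fold change was −0.05, with an interval of −1.57 to 1.47, so that a 2-fold change in either direction was not detectable in these mice. The ratio of Hk1 to Hk2 per kilobase differed by −0.90 on the log2 scale between the genotypes, which was within the spread of mice (exact two-sided permutation p = 0.629, 0.629 after adjustment over 5 ratios).

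Gpi1, which isomerizes glucose 6-phosphate to fructose 6-phosphate (chr7:34201330-34230336, minus strand), was the second most abundant member. Its level was 123.3, 111.0, 133.1 and 124.5 CPM in floxed mice 1 to 4 and 115.4, 93.7, 137.6 and 136.8 CPM in knockout mice 1 to 4. The knockout values surrounded the floxed ones. The 95% interval of its log2 fold change was −0.36 to 0.23 (estimate −0.06, edgeR adjusted p = 0.756). Of its annotated 50-base stretches, 25.3% also occur in other annotated genes.

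Phosphofructokinase is a tetramer of liver (Pfkl), muscle (Pfkm) and platelet (Pfkp) subunits, and transcripts of all 3 were present. Pfkm (chr15:98092589-98132451, plus strand) was at 21.7, 28.2, 41.1 and 37.2 CPM in floxed mice and 9.93, 21.3, 28.2 and 21.2 CPM in knockout mice 1 to 4. Of the knockout mice, 3 of 4 lay below every floxed mouse, and knockout mouse 3 lay beside floxed mouse 2, so the groups overlapped. Pfkm averaged 32.0 ± 8.76 CPM in floxed mice and 20.1 ± 7.56 CPM in knockout mice, 1.63-fold lower, without passing the test (log2 fold change −0.70, SE 0.32, interval −1.42 to 0.02, edgeR adjusted p = 0.133). Mouse 1 was low in both genotypes, and with it left out of both Pfkm was called lower (log2 fold change −0.68, adjusted p = 0.0158), in a comparison that called 43.9% of all genes and 23.1% lower. With the total count per oocyte as a covariate, a fit chosen after seeing the data, it was also called lower (−1.07, adjusted p = 0.0280). Annotated exons of Pfkm overlap Senp1 on the opposite strand, and the library type does not mark strand. Of the 50-base stretches of the Pfkm transcript compared, 0.0% occur in other annotated genes.

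Pfkl (chr10:77986947-78010083, minus strand) was at 28.5, 22.6, 26.9 and 25.6 CPM in floxed mice 1 to 4 and at 52.9, 21.6, 33.5 and 27.9 CPM in knockout mice 1 to 4. The single oocyte of knockout mouse 1 set the high end, and the other 3 knockout mice straddled the floxed values. The log2 fold change of Pfkl was 0.35 (interval −0.25 to 0.94, edgeR adjusted p = 0.365), and without knockout mouse 1 it was 0.01. Pfkp (chr13:6579768-6648777, minus strand) was at 31.8, 42.3, 47.1 and 37.1 CPM in floxed mice and 39.7, 25.7, 39.5 and 47.0 CPM in knockout mice, with a log2 fold change of −0.10 (interval −0.58 to 0.38). Of its 50-base stretches 17.1% are shared with Pitrm1, which overlaps it on the opposite strand.

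Per kilobase, Pfkp made up 38.9 ± 3.50% of the phosphofructokinase transcripts in floxed and 40.4 ± 5.23% in knockout mice (SD, n = 4 each). Pfkm made up 37.4 ± 5.28% and 26.7 ± 10.7%, and Pfkl 23.7 ± 4.92% and 32.9 ± 10.4%. The log2 ratio of Pfkl to Pfkm was −0.01, −0.72, −1.01 and −0.94 in floxed mice 1 to 4 and 2.00, −0.38, −0.15 and 0.004 in knockout mice 1 to 4. Floxed mouse 1 lay among the knockout values. The difference of 1.04 did not pass (exact two-sided permutation p = 0.0857, adjusted 0.429), and without knockout mouse 1 it was 0.49. The ratios of Pfkl to Pfkp and Pfkm to Pfkp differed by 0.40 and −0.64 on the log2 scale, also within the spread of mice (exact p = 0.257 and 0.2; adjusted 0.429 for both). The smallest p that 4 against 4 mice allow is 0.0286 before adjustment. A single ratio at that p would not pass after adjustment over the 5 ratios, so the adjusted test could hardly have called 1 ratio alone.

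**Figure D2:**
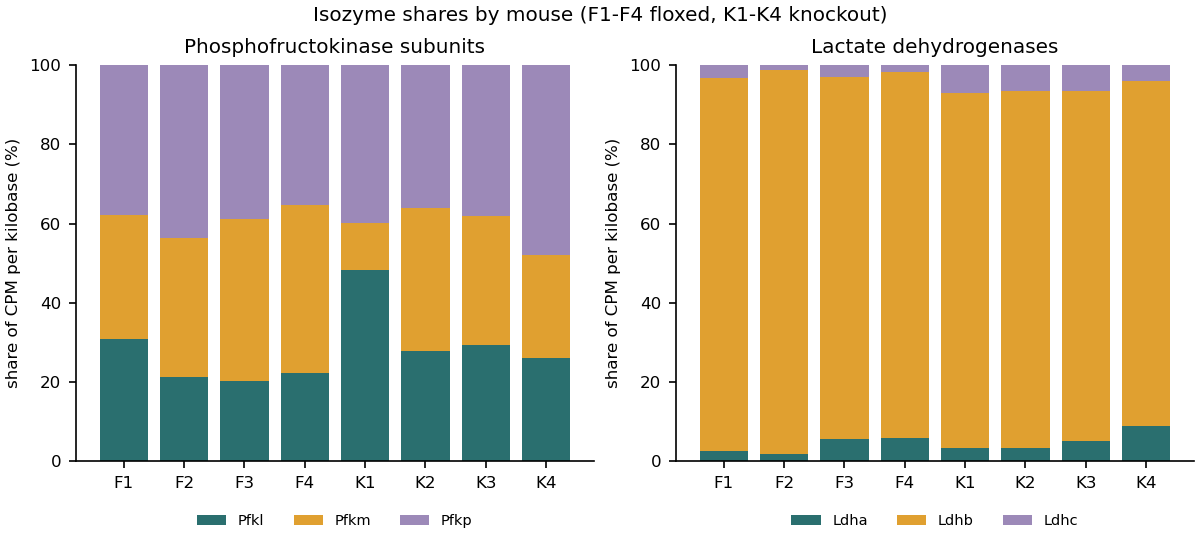
Share of each isozyme (percent of the summed CPM per kilobase, stacked bars) within the phosphofructokinase subunits and the lactate dehydrogenases, for floxed mice 1 to 4 (F) and knockout mice 1 to 4 (K). Ldhb makes up at least 87.1% of the summed Ldha, Ldhb and Ldhc in every mouse, and the phosphofructokinase subunits are mixed throughout. Ldhd, at means of 22.65 CPM per kilobase in floxed and 27.26 in knockout mice, was left out of these shares.

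Aldoa, which splits fructose 1,6-bisphosphate (chr7:126795234-126800751, minus strand), was the most abundant member. It was at 189.4, 194.4, 165.6 and 170.5 CPM in floxed mice 1 to 4 and at 201.3, 195.9, 207.4 and 218.6 CPM in knockout mice 1 to 4. All 4 knockout mice lay above all 4 floxed mice, though knockout mouse 2 exceeded floxed mouse 2 by little. Groups that did not overlap were seen for 31.0% of all genes tested (16.0% with the knockout mice higher). The difference was 1.11-fold (179.9 ± 14.1 against 205.8 ± 9.75 CPM; log2 fold change 0.16, SE 0.08, interval −0.02 to 0.33) and did not pass the test (edgeR adjusted p = 0.169). Of its 50-base stretches 13.5% occur in 6 other annotated genes, among them Aldoart1.

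Gapdh, which oxidizes glyceraldehyde 3-phosphate and yields NADH (chr6:125161715-125166467, minus strand), was the 1 member that rose. It was at 19.4, 12.7, 19.0 and 20.8 CPM in floxed mice 1 to 4 and at 27.2, 25.8, 30.7 and 30.2 CPM in knockout mice 1 to 4. The lowest knockout mouse stood above the highest floxed mouse, and floxed mouse 2 was the lowest of all. The mean was 17.9 ± 3.61 CPM against 28.5 ± 2.34 CPM (log2 fold change 0.63, SE 0.20, interval 0.18 to 1.07, edgeR adjusted p = 0.0423). This call was marginal: it was kept without knockout mouse 1 (adjusted p = 0.0417) and lost without any 1 of the other 7 mice (adjusted p = 0.0548 to 0.117). Knockout oocytes were also sequenced more deeply. With every oocyte thinned to a common depth the Gapdh log2 fold change was 0.62 and the call was kept (adjusted p = 0.0348). Thinning leaves the expected share of each gene in an oocyte as it was. It therefore cannot remove a share that moves with depth, as that of Gapdh did across floxed oocytes pooled over mice (slope 1.52, described below). That slope does not separate depth from differences between mice. With the total count per oocyte as the covariate used for Pfkm it was 0.49 and the call was lost (adjusted p = 0.108). Most of the Gapdh transcript, 82.5% of its 50-base stretches, also occurs in other annotated genes, 222 in all, so its level is uncertain. The handling of reads that match several places was not given in the sources used here.

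Pgk1, the first ATP-yielding step (chrX:106187100-106203699, plus strand), was at 47.1, 49.5, 62.1 and 59.9 CPM in floxed mice and 48.0, 57.7, 67.4 and 78.4 CPM in knockout mice 1 to 4. Knockout mice 3 and 4 were highest and knockout mouse 1 lay among the floxed values. The difference did not pass (log2 fold change 0.16, interval −0.23 to 0.56, edgeR adjusted p = 0.524). Other annotated genes, 5 in all, share 68.0% of its 50-base stretches, so this level too is uncertain.

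Ldha, the lactate dehydrogenase subunit that dominates in glycolytic tissue (chr7:46841475-46855627, plus strand), was at 17.6, 12.8, 29.6 and 36.0 CPM in floxed mice and 22.2, 19.9, 28.5 and 51.3 CPM in knockout mice 1 to 4. Mouse 4 was highest and mouse 2 lowest in both genotypes, and the groups overlapped. The log2 fold change was 0.30, with an interval of −0.58 to 1.19 (edgeR adjusted p = 0.610). Without knockout mouse 4 it was −0.10. Ldhb, the subunit that dominates in tissues that oxidize lactate, was much more abundant, at 485.1 ± 69.3 CPM in floxed mice and 441.1 ± 32.7 CPM in knockout mice (adjusted p = 0.260). Per kilobase Ldhb exceeded Ldha 26.0-fold in floxed and 18.6-fold in knockout oocytes, as geometric means over mice. The log2 ratio of Ldha to Ldhb differed by 0.49 (exact two-sided permutation p = 0.429, adjusted 0.536). Ldhb counts hardly followed the depth: the shallowest oocyte (total 1746007) held 1863 counts of Ldhb and the deepest (6233840) held 2321. Across oocytes pooled over mice, the measured excess of Ldhb over Ldha therefore moved with depth, and its true size is uncertain.

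In single oocytes 9 of the 10 transcripts had a count in every one of the 50. Hk1 was the exception, with a count in 19 of 26 floxed (73.1%) and 11 of 24 knockout oocytes (45.8%). At a common depth of 1746007 counts it was found in 16 floxed (61.5%) and 7 knockout oocytes (29.2%). These shares pool oocytes that share mice and carry no test; per mouse they were 100, 42.9, 85.7 and 71.4% in floxed and 100 (1 oocyte), 57.1, 37.5 and 37.5% in knockout mice 1 to 4 as deposited. The highest Hk1 count in any oocyte was 16.

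Gapdh was at 6.31 to 26.0 CPM in single floxed oocytes (median 17.4) and at 20.6 to 39.4 CPM in knockout oocytes (median 28.4). The 2 sets of cells overlapped between 20.6 and 26.0 CPM. Aldoa ranged from 133.2 to 265.2 CPM in floxed oocytes (median 178.8) and, more narrowly, from 173.1 to 232.5 CPM in knockout oocytes (median 210.2). The floxed values of 265.2 and 262.9 CPM came from oocytes with totals of 2997631 and 1746007, whereas knockout totals began at 4332108. The part of depth in the narrower range was not tested. Ldha ranged from 2.10 to 59.1 CPM (median 22.1) in floxed and from 10.5 to 66.1 CPM (median 29.9) in knockout oocytes, and Hk2 from 0.510 to 17.8 and from 0.462 to 27.1 CPM. These ranges pool single cells over mice, and no test set them against the difference between genotypes.

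**Figure D3:**
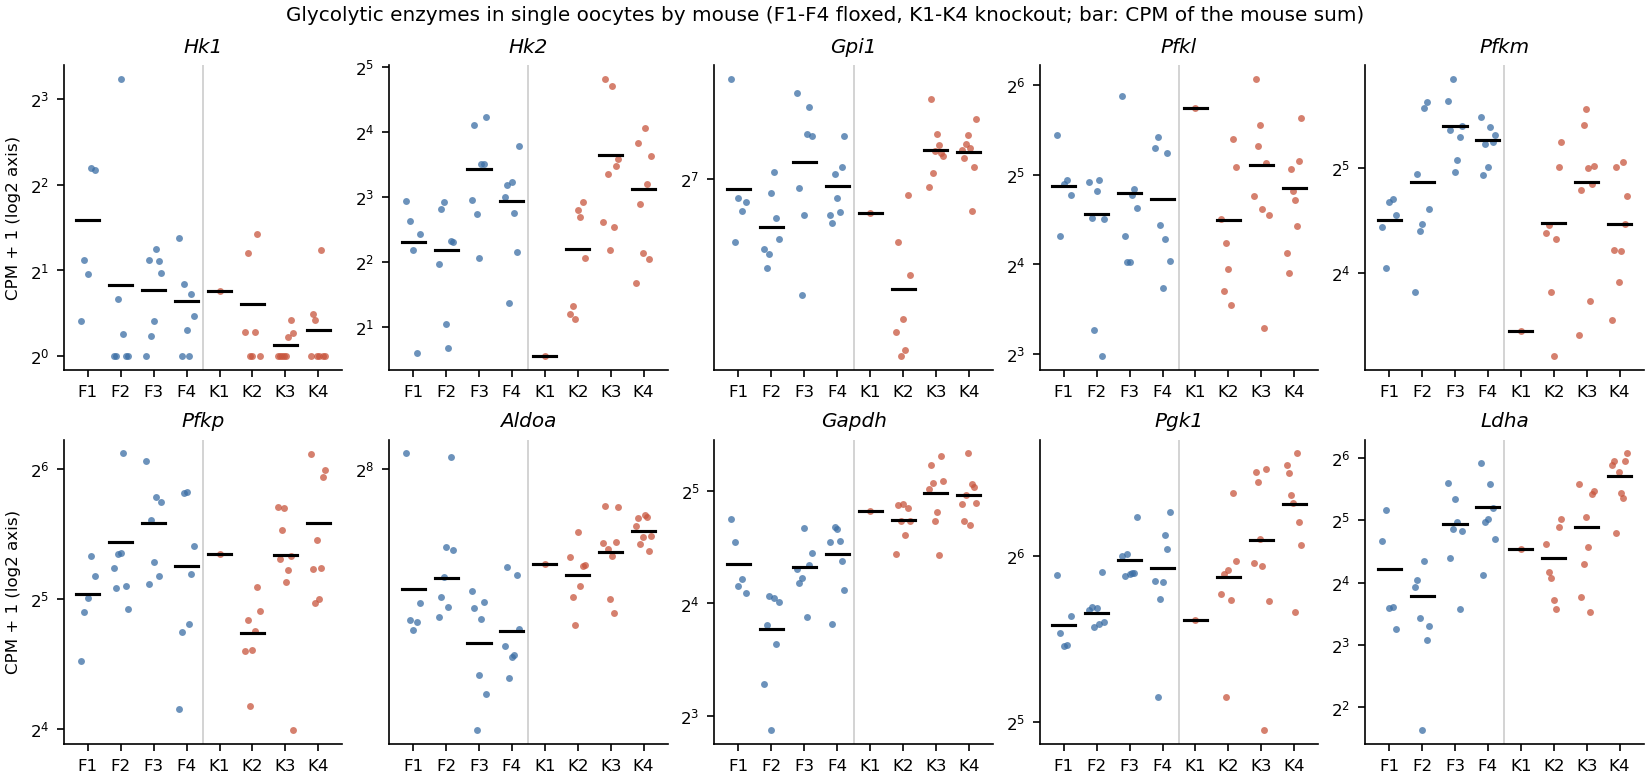
CPM + 1 (log2 axis) of each glycolytic transcript in every oocyte (points), by mouse, for 26 floxed (F) and 24 knockout (K) oocytes; bars are the CPM of the mouse sum. Aldoa and Gpi1 form tight bands, Hk2, Ldha and Pfkl spread widely within mice, and the lowest knockout oocyte for Gapdh (20.6 CPM) lies above the floxed median (17.4 CPM).

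The spread among oocytes of a mouse, as the SD of log2(CPM + 1) after thinning to the common depth, was low for Gpi1 (0.202 in floxed and 0.161 in knockout mice, averaged over mice) and Aldoa (0.218 and 0.117), and for Pgk1 in floxed mice (0.217, against 0.430 in knockout mice). The median gene of 100 to 250 CPM had 0.209 and 0.200, and that of 50 to 100 CPM, where the mean of Pgk1 lay, had 0.293 and 0.304. In floxed mice Hk1, Hk2 and Ldha had the highest values among the members (0.828, 0.803 and 0.723), and in knockout mice Hk2, Pfkl and Pfkm did (0.947, 0.736 and 0.717). For genes of 2 to 10 CPM, where the mean of Hk2 lay, the medians were 0.8 and 0.911, so Hk2 was near the background of its level. For genes of 0.5 to 2 CPM, where the mean of Hk1 lay, they were 0.702 and 0.768. Ldha had 0.564 in knockout mice and Hk1, whose many zeros bound its spread, had 0.552. The median gene of 10 to 50 CPM, the range of Ldha, had 0.486 and 0.549, so Ldha was above it in floxed mice and near it in knockout mice. Pfkl, in the same range, had 0.639 and 0.736. Pfkm had 0.183 to 0.646 in the 4 floxed mice and 0.595 to 0.858 in the 3 knockout mice with several oocytes. Pgk1 had 0.130 to 0.384 and 0.367 to 0.506, and in both genes 1 floxed mouse overlapped the knockout range. With 3 against 4 mice no exact test can go below 0.0571, and none was made.

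The members followed depth unequally across floxed oocytes. The log2 count rose with the log2 total count at a slope of 0.63 for Aldoa, 1.07 for Gpi1, 1.52 for Gapdh and 2.61 for Ldha. A slope of 1 would mean a share that does not move with depth. Each slope pooled the 26 floxed oocytes without a term for the mouse, so differences between mice enter it. The parts of depth and of the mouse were not separated. The median slope was 1.36 over 5545 sparsely covered genes (under 0.05 counts per base of transcript) and 0.51 over 208 densely covered ones (0.8 or more). Ldhb, at 0.19, and Pkm, at 0.49, were among the flattest of the pathway. Changes in such dense transcripts may be understated, which was not tested.

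Of 8214 genes that averaged at least 20 CPM, those whose level across the 50 oocytes was most like that of Aldoa were Mecr (Pearson r = 0.85), Vps72 (0.83) and Rasa4 (0.81), on log2(CPM + 1) with each mouse's mean subtracted. The median gene had −0.06, and among the members at that level Gpi1 had 0.45, Pgk1 0.23, Pfkl 0.20, Pfkm 0.053, Gapdh 0.021, Ldha −0.079 and Pfkp −0.28. Aldoa and these 3 genes all fell with the total count of the oocyte, with r of −0.62 for Aldoa, −0.52 for Mecr, −0.56 for Vps72 and −0.78 for Rasa4. The part of depth in their likeness was not tested.

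The remaining enzymes of the same steps were read from 18 further listed genes, of which 14 were in the table and 12 were tested: 4 were called higher, 0 lower and 8 did not pass, where 14.4% of all genes tested were called higher and 13.2% lower. Pgam1, a phosphoglycerate mutase, rose 2.31-fold from 15.7 ± 6.67 to 37.0 ± 6.01 CPM (edgeR adjusted p = 0.0121), with 41.5% of its 50-base stretches shared with other genes. Ldhc, the lactate dehydrogenase of germ cells, rose 2.51-fold from 12.3 ± 4.47 to 31.6 ± 8.21 CPM (adjusted p = 0.0116). Its share of the summed Ldha, Ldhb and Ldhc transcripts per kilobase went from 2.31 ± 0.900% to 6.02 ± 1.34%. In both genes the groups of mice did not overlap and the call was kept without any 1 mouse. Aldoc, an aldolase far less abundant than Aldoa, was also higher (2.04 ± 0.767 to 6.62 ± 2.17 CPM, 3.16-fold, adjusted p = 0.0170). Pyruvate kinase, Pkm, was at 375.9, 389.8, 287.8 and 304.9 CPM in floxed mice and 456.8, 431.9, 441.5 and 458.4 CPM in knockout mice 1 to 4 (1.28-fold, adjusted p = 0.0254).

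The calls of Aldoc and Pkm were less stable. Aldoc missed the threshold without knockout mouse 3 (adjusted p = 0.0540) and with the depth covariate (0.0634). Pkm passed only without floxed mouse 2 (adjusted p = 0.0157) when single mice were left out, and missed it at the common depth (0.147). Abundant enzymes that did not pass were Bpgm, of the erythrocyte bypass of the Pgk1 step (528.0 ± 51.3 and 512.4 ± 24.6 CPM), and Tpi1, the triose phosphate isomerase (123.8 ± 6.43 and 118.5 ± 10.9 CPM). Eno1, an enolase, was at 3.89 ± 0.876 and 4.88 ± 1.37 CPM. Other annotated genes, 9 in all, share 72.2% of the 50-base stretches of Eno1, so its level is uncertain. The shared part was 34.4% for Pkm and 27.0% for Ldhb. Gapdhs, Eno4 and Ldhd also did not pass (adjusted p = 0.942, 0.934 and 0.215).

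Of the enzymes that set fructose 2,6-bisphosphate, the main activator of phosphofructokinase, 5 were tested, and 2 were called higher and 1 lower, in a comparison that called 14.4% of all genes higher and 13.2% lower. Pfkfb3, which mainly makes this activator (chr2:11471433-11554077, minus strand), was at 10.8, 7.84, 6.76 and 8.43 CPM in floxed mice and 42.5, 34.4, 30.9 and 31.5 CPM in knockout mice 1 to 4. The knockout mice stood far above the floxed mice, at 4.01-fold (log2 fold change 2.00, SE 0.21, edgeR adjusted p = 0.00041). Its 3′ untranslated region of 3063 bases held 2 overlapping TATTTAT matches, of which the first is
Pfkfb3, chr2:11472050-11472074, minus strand: cagatgtgcTATTTATttatttaat
Tigar, which removes fructose 2,6-bisphosphate, was at 135.9, 158.2, 177.0 and 175.1 CPM in floxed mice and 103.4, 96.6, 114.8 and 110.0 CPM in knockout mice, 1.57-fold lower without overlap (adjusted p = 0.00352). Its untranslated region of 2758 bases holds 1 match. That of Pfkfb2 holds 1 in 2834 bases, and those of Pfkfb4 and Pfkfb1 hold 0 in 1840 and 256 bases. Of the other called genes of glucose metabolism, the lowered Slc2a13, Dlat and Hif1a hold 3 each, Pdp1 2 and Pdhx 1. The raised Slc2a1, Slc16a3 and Ogdh hold 1 each, and the rest hold 0, the raised Pgam1, Ldhc and Pcx among them. Any match occurs in 27.7% of tested genes, at a median region of 1003 bases, and binding was not measured. Pfkfb4 was 4.80-fold higher at a low level (0.840 ± 0.553 to 4.36 ± 3.11 CPM, adjusted p = 0.0439), a call that among fits without 1 mouse was kept only without knockout mouse 3 (0.0335). Pfkfb1 and Pfkfb2 did not pass (adjusted p = 0.211 and 0.118), though Pfkfb2 was at 15.7 ± 7.02 CPM in floxed mice and 4.57 ± 4.51 CPM in knockout mice and was called lower in some other fits. It passed without knockout mouse 1 or knockout mouse 4 (adjusted p = 0.0470 and 0.0477), without mouse 1 of both genotypes (0.0204) and in DESeq2 (0.0478).

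Among 8 tested glucose transporters 1 was called higher and 2 lower, against 14.4% and 13.2% of all genes. Slc2a1, the basal glucose transporter GLUT1, went from 66.4 ± 5.48 to 91.3 ± 7.17 CPM (1.34-fold, edgeR adjusted p = 0.0153), with no overlap of the mice; the call was lost without floxed mouse 4 and without knockout mouse 2, 3 or 4 (adjusted p up to 0.0925). The inositol transporter Slc2a13 was 19.3-fold lower in the fit, with mean levels going from 10.8 ± 4.49 to 0.492 ± 0.444 CPM (adjusted p = 0.00189). The fructose transporter Slc2a5 was lower by 4.46-fold (2.29 ± 0.494 to 0.462 ± 0.378 CPM, adjusted p = 0.0294), a call kept among fits without 1 mouse only without knockout mouse 1 or knockout mouse 4. Slc2a12 and Slc2a10 did not pass (adjusted p = 0.832 and 0.204), the latter except without knockout mouse 1 (0.0369). Of 5 tested lactate and pyruvate carriers, Slc16a3, the lactate exporter of glycolytic cells, was higher by 6.55-fold at a low level (0.382 ± 0.140 to 2.55 ± 0.854 CPM, adjusted p = 0.00402), and the other 4 did not pass, among them the carrier subunits Bsg (0.651) and Emb (0.703).

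**Figure D4:**
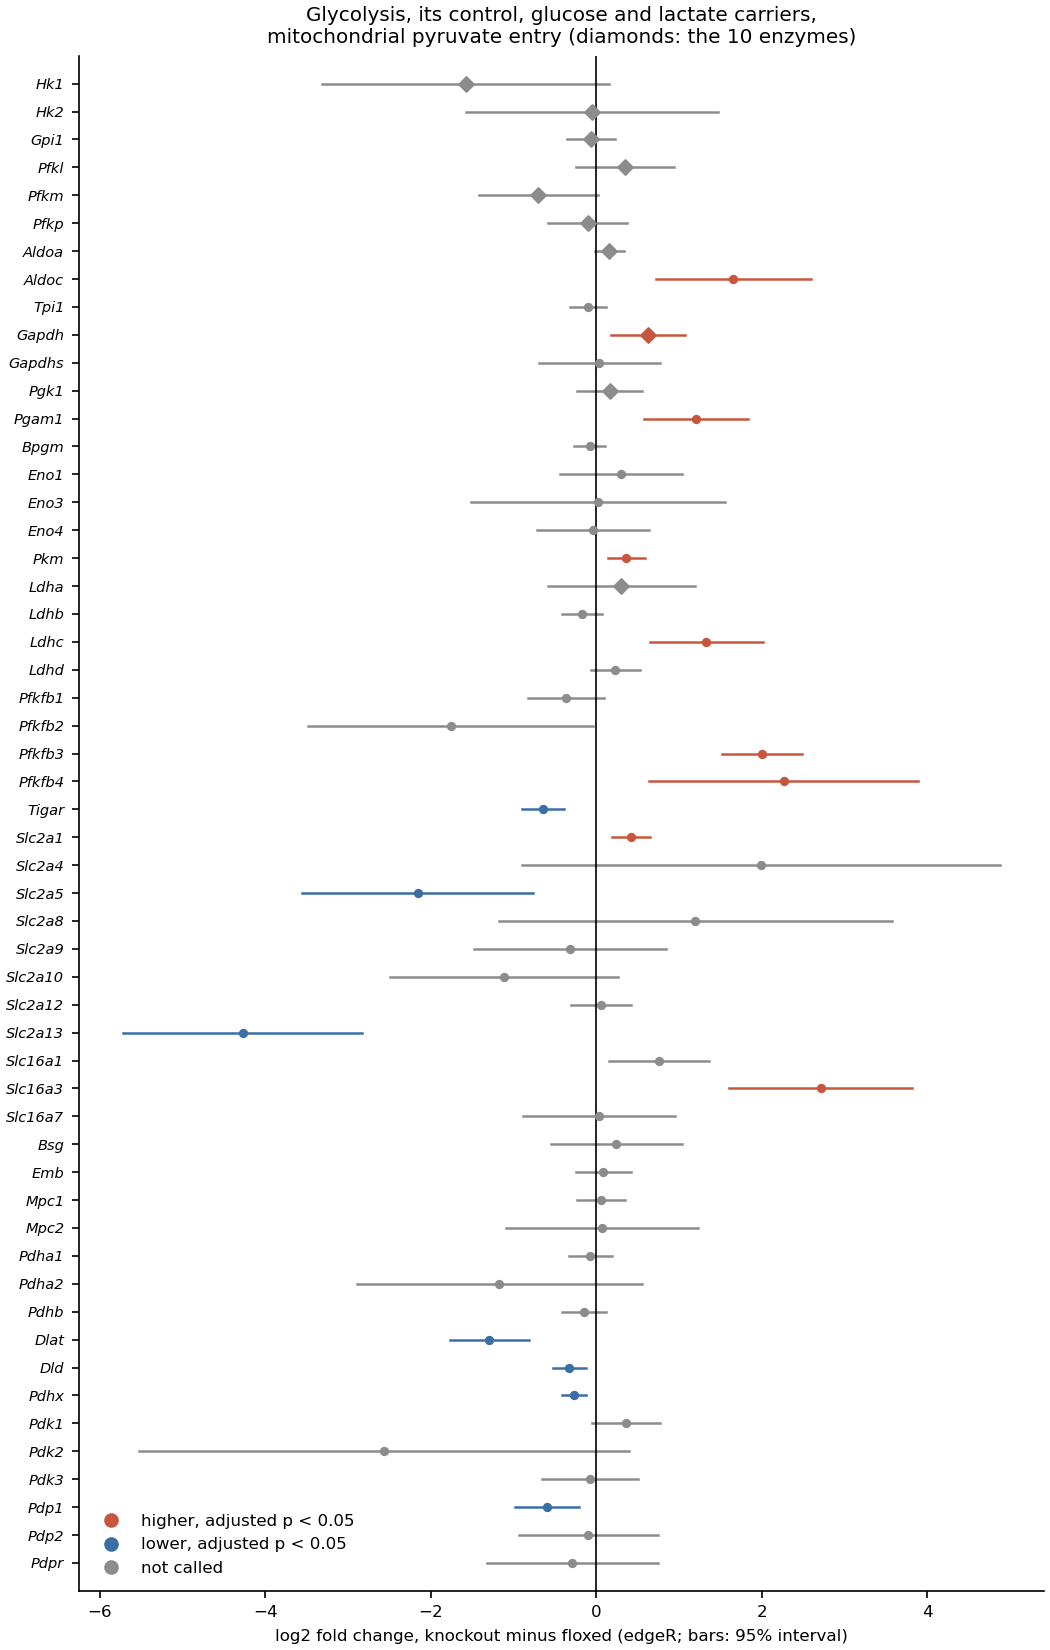
Log2 fold change, knockout minus floxed (x axis), with 95% intervals from edgeR on 4 against 4 mice, for glycolysis, its control, the carriers and mitochondrial pyruvate entry; diamonds mark the 10 members, red is called higher and blue called lower. The interval of Gapdh, 0.18 to 1.07, lies above 0, those of the other 9 members include 0, and Pfkfb3 stands at 2.00.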

How the data were processed

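The values the authors deposited are raw read counts for each gene, whole numbers without normalization, in 1 table of 50 oocytes. Per the submitters' processing notes, STAR and mm10 were used. Which version, which counting tool and which treatment of duplicate and multi-mapping reads: not given in the sources used here. Per the labels' protocols, cDNA was primed on poly(A) tails with a SMARTer Ultra Low Input kit. It adds no molecular identifiers and leaves strand unmarked. Copies made by amplification were therefore not told apart, and an amplification bias shared by all libraries would not show in the intervals. All 150 pairs of oocytes from the same mouse differed by more than sampling noise.

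Counts were summed per mouse and tested with edgeR 4.0.16 in R 4.3.3 (TMM, filterByExpr with a minimum count of 10, robust quasi-likelihood test, Benjamini-Hochberg over 15029 genes). All 10 members passed the filter. The labels do not say whether mice were separate litters or batches. The biological coefficient of variation was 35.4%. CPM was computed from the sums. Ratios had 0.5 counts added and were compared by exact permutation of mice. Transcript lengths, coordinates and untranslated regions came from GENCODE, matched for 16350 genes by RefSeq accession and 186 by symbol; 78 were not matched. Stretches of 50 bases were compared between genes to find shared sequence. DESeq2 1.42.0, limma 3.58.1, other scalings, no filter, a common depth and left-out mice were tried as alternatives. The genes named were the members, called genes of 19 lists of glucose metabolism with up to 2 further abundant genes of each, Zfp36l2 and the 3 genes most like Aldoa. Of the listed genes 2 are not reported here and enter no count of a list. The members and lists were chosen with earlier results of these data known.

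The fit was tested on simulated counts, with 50 genes changed at each size: it called 2 of 50 changed 1.5-fold, 8 of 50 changed 2-fold and 50 of 50 changed 4-fold. The simulation changed few genes and gave every gene the same variation between mice, whereas the real comparison called 27.6% of genes. Fewer changed genes make the adjusted threshold stricter, so these shares do not give the power of the real fit.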

Additional observations from a re-analysis of the deposited data

Results flagged for a closer look

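In 126 groups of 4 mice, 9 values stood apart from the other 3 mice by more than Dixon's 95% critical value; chance gives about 1 in 20 groups. Among the glycolytic enzymes these were Hk1 in floxed mouse 1 (2.00 CPM) and the Pfkl to Pfkm log2 ratio in knockout mouse 1 (2.00), the mouse with 1 oocyte. The same mouse stood apart in Dlat (59.3 CPM), Pfkfb1 (13.6 CPM) and Cs (304.9 CPM). Pcx stood apart in knockout mouse 4 (29.1 CPM), Slc2a12 in knockout mouse 3 (80.1 CPM), and Hif1a (262.5 CPM) and Rpe (114.1 CPM) in floxed mouse 2.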

How the results depend on the processing

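Over 17 alternatives of the fit, the 10 members gave 169 comparisons with the reported value: 147 kept direction and side of the threshold, 8 lost a call, 3 gained one and 11 changed sign. Other named genes gave 815, of which 717, 68, 10 and 20 did so. Members called higher ranged from 0 to 1 when 1 mouse was left out and were 0 with the depth covariate, the 1 alternative chosen after seeing the data. Members called lower were 1 with the replicate block, without mouse 1 of both genotypes and with the depth covariate, in each case Pfkm (log2 fold change −0.74, −0.68 and −1.07; edgeR adjusted p = 0.0120, 0.0158 and 0.0280). The cause was not tested. The labels do not say what mouse numbers share. Deviations of same-numbered mice correlated at 0.50, 0.03, 0.40 and 0.29, and floxed mice 1 and 3, but not 2 and 4, correlated best with their own number. As the pair of mice 2 showed next to none, the numbers were not taken as pairing; whether they mark shared batches cannot be told. The replicate block raised all calls to 2876 higher and 2947 lower, Pfkfb2 among them (−2.17, adjusted p = 0.0226). The ratio of Pfkl to Pfkm under the block kept its difference of 1.04 (exact sign permutation, adjusted p = 0.417; 4 pairs cannot go below 0.125). All genes called ranged from 1359 to 2538 higher and 1219 to 2822 lower without 1 mouse, and 3549 were lower without mouse 1 of both genotypes. Further glycolysis genes called higher were 2 to 5 without 1 mouse, the fewest without knockout mouse 3. Signs of uncalled genes changed as follows. Hk2 was 0.0011 with library totals and 0.11 without mouse 1. With the depth covariate Pgk1 was −0.021, Ldha −0.12, Gapdhs −0.15, Bpgm 0.025, Slc2a12 −0.038 and Fbp2 −0.076. Gapdhs was also −0.013 in limma, −0.049 at the common depth and −0.012 without mouse 1, where Slc2a12 was −0.057. Without 1 mouse, ranges were −0.61 to 0.29 for Hk2, −0.27 to 0.0011 for Pfkp, −0.0005 to 0.23 for Pgk1, −0.10 to 0.57 for Ldha, −0.18 to 0.12 for Gapdhs, −0.21 to 0.041 for Eno4, −0.11 to 0.11 for Slc2a12, −0.036 to 0.54 for Bsg, −0.091 to 0.12 for Emb, −0.028 to 0.15 for Fbp2, −0.023 to 0.074 for Egln1 and −2.23 to 0.21 for the Hk1 to Hk2 ratio. Levels and the members' median spread moved by less than 1 SD under their alternatives. For single members the spread moved by more without thinning in knockout mice for Hk1 (0.404), Hk2 (0.891) and Gapdh (0.218).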

Other observations

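Downstream of glycolysis, some transcripts for mitochondrial pyruvate use were lower in knockout oocytes. Of 14 tested genes of pyruvate entry 0 were higher and 4 lower (13.2% of all genes were called lower). Dlat, the acetyltransferase core of pyruvate dehydrogenase, was at 85.3, 99.2, 96.4 and 94.0 CPM in floxed and 59.3, 35.4, 33.4 and 30.6 CPM in knockout mice 1 to 4, 2.45-fold lower (edgeR adjusted p = 0.00264). Pdhx, which tethers a subunit of that complex, was 1.21-fold lower (adjusted p = 0.0130). Both calls held without any 1 mouse. Dld, the complex's dihydrolipoyl dehydrogenase, was 1.25-fold lower (0.0278) and its activating phosphatase Pdp1 1.51-fold lower (0.0321). Both were lost without floxed mouse 2, 3 or 4, and Pdp1 also without knockout mouse 3 (adjusted p up to 0.0791 and 0.0922). Pdha1 and Pdhb did not pass (0.691 and 0.396).

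Pcx, pyruvate carboxylase, which feeds pyruvate into oxaloacetate, rose 2.54-fold from 12.1 ± 1.03 to 31.6 ± 1.68 CPM (adjusted p = 0.000788). Fbp1, fructose 1,6-bisphosphatase, was 1.65-fold lower, from 144.3 ± 7.25 to 89.9 ± 8.25 CPM (0.00126). Both held without any 1 mouse. G6pc3, a glucose 6-phosphatase, was 1.83-fold lower (0.0369), a call lost without floxed mouse 2, 3 or 4 or knockout mouse 2 (up to 0.108). Of 17 citrate cycle genes 3 were higher and 1 lower, where 14.4% of all genes were called higher and 13.2% lower. Suclg1 was 1.40-fold higher (0.00795) without loss of the call. Ogdh was 1.34-fold higher (0.0187), lost without knockout mouse 3 or 4 (up to 0.0598). Dlst was 1.19-fold higher (0.0260), kept among fits without 1 mouse only without floxed mouse 2. Idh3b was 1.57-fold lower (0.0332), lost without floxed mouse 1, 2 or 4 or knockout mouse 2 or 3 (up to 0.0836). G6pdx, the entry of the pentose phosphate pathway, was 1.16-fold lower (0.0308), lost without floxed mouse 2 or 4 or knockout mouse 2, 3 or 4 (up to 0.0825). Hif1a, the hypoxia factor that induces glycolytic genes, was 1.27-fold lower (0.0161) and held without any 1 mouse. Cs, Sdha, Taldo1, Rpe, Fbp2, G6pc2, Egln1 and Arnt did not pass (adjusted p = 0.300, 0.591, 0.540, 0.326, 0.725, 0.425, 0.552 and 0.326), and Arnt passed without knockout mouse 1 (0.0176).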
